A study of Mus musculus with 8 samples.

Results

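Ribosome biogenesis genes were followed from the base of the mouse colonic crypt to the surface of the epithelium. They were taken as a list of 48 genes by symbol: 4 subunits of RNA polymerase I, 6 nucleolar proteins of broad function, 4 proteins each of the box C/D and box H/ACA small nucleolar ribonucleoproteins (snoRNPs), 18 assembly factors of the small subunit and 12 of the large subunit. Probes named 17711 genes on the arrays, and 46 of the 48 were among them. Dkc1, the pseudouridine synthase of the box H/ACA snoRNPs, and Utp20, a small subunit factor, had no probe in the annotation used here.

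RNA was measured on 8 Illumina bead arrays of wild-type C57BL/6 mice that were male and 10 to 12 weeks old, with no treatment. Laser capture of distal colon gave 4 samples of surface epithelial cells and 4 of crypt base cells, and each of 4 mice gave 1 sample of either kind, per the design text. The captured RNA was amplified in successive rounds before labelling. Levels below are deposited log2 signals, set side by side only within a probe, and each change is surface minus crypt base from a limma fit with the replicate number as a block.

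Ribosomes are built in the nucleolus. RNA polymerase I transcribes the common precursor of the larger ribosomal RNAs, snoRNPs guide its methylation and pseudouridylation, and assembly factors fold and cut it while ribosomal proteins join. In the intestine the dividing cells lie low in the crypt, and their daughters stop dividing and differentiate as they move to the surface.

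A gene was tested where its brightest probe had a detection p under 0.05 on at least 4 of the 8 arrays. This held for 9494 genes in all and for 36 of the 48 listed, 28 of which were detected on all 8 arrays. Npm1 (nucleophosmin), Nop56, Utp18, Bysl, Wdr12, Rrs1 and Nop16 were detected on 0 arrays, Noc3l on 2, and Wdr75 and Nat10 on 3, so nothing is said of these 10 genes beyond that. The log2 signal of 5.52 is called background, since as many readings exceeded it as had a detection p under 0.05. Differences between readings close to that level come out too small.

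Markers went in the direction of the samples' labels. The marker lists were chosen with earlier results of these data known, so this is no independent check of the samples. At a limma adjusted p under 0.05, surface colonocyte markers were higher at the surface in 9 of 9 genes tested (12.1% of all genes). Their median change was 1.89, from Guca2a, the brightest (12.40 at the crypt base and 13.11 at the surface), to Mep1a, the dimmest (7.11 and 8.69). Markers of crypt base and proliferating cells were lower in 6 of 6 (10.1% of all genes). Their median change was -0.81, from Sox9 (12.17 and 11.61) to Top2a (5.75 and 5.33), while Lgr5 and Ascl2 were detected on 0 arrays. Krt20, on the surface colonocyte and epithelial lists, was also detected on 0 arrays. Surface sample 4 stood apart: of its 46632 probes, 199 (184 of them downward) were more than 2 log2 units away from the median over the remaining arrays, against 6 to 34 in the other 7 samples. Between 15061 and 16449 probes were detected per array.

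Ribosome biogenesis genes were lower at the surface in 19 of the 36 tested and higher in 0, at a limma adjusted p under 0.05. Over all 9494 genes 10.1% were lower and 12.1% higher by that test. At an unadjusted p under 0.05, 29 of the 36 were lower and 1, Tsr1, higher, against 18.3% and 18.2% of all genes. The median change of the 36 was -0.45, and that of all genes -0.01. All 4 surface values lay under all 4 crypt base values for 18 of the 36 (9.59% of all genes) and above them for 0 (9.72% of all genes). The change was below 0 for 34 of the 36 (52.2% of all genes), and 30 were lower at the surface within all 4 numbered pairs (22.1% of all genes). In bulk samples such as these, fewer cells of a type and less RNA per cell cannot be told apart.

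These calls rested on few arrays. Without the replicate block 13 of the 19 were called (6.1% of all genes were lower), and Polr1b, Polr1c, Ddx21, Nop58, Rrp12 and Bop1 were not. Leaving out both samples of a number gave 24 lower without number 2 (12.1% of all genes), 9 without number 3 (4.26%) and 8 without number 4 (2.31%). Without number 1 it gave 0, where none of the 9494 genes passed and the lowest adjusted p was 0.05002; 23 of the 36 then had an unadjusted p under 0.05, as did 26.5% of all genes. With surface sample 4 alone left out and no block, 10 were lower (4.2% of all genes). Polr1a, Nolc1, Gnl3, Fbl, Gar1 and Rcl1 were lower without number 2, without 3, without 4 and without the block. The median change stayed between -0.39 and -0.55 under each of the alternatives run.

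**Figure D1:**
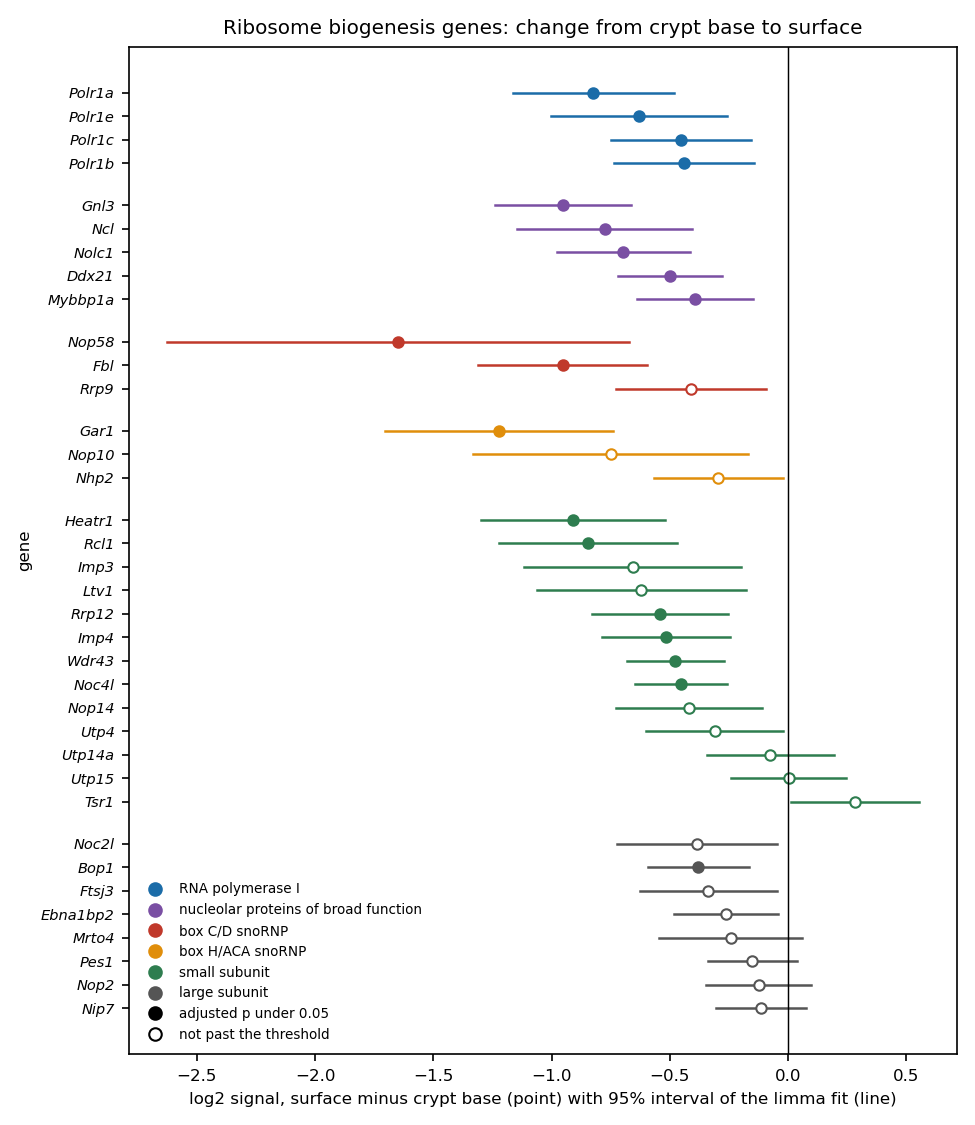
Change in log2 signal from crypt base to surface (x axis) for the 36 ribosome biogenesis genes tested, grouped by role; lines are 95% intervals of the limma fit, and filled points have an adjusted p under 0.05. The 9 tested genes of RNA polymerase I and of the broad nucleolar group are filled, against 1 of 8 large subunit factors. Some of these factors read close to background, and Tsr1 (0.28) lies farthest to the right.

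Each subunit of RNA polymerase I on the list fell, with a median change of -0.54. Polr1a, the largest subunit, which holds part of the active site, read 7.53, 6.96, 7.30 and 7.21 in crypt base samples 1 to 4 and 6.24, 6.51, 6.49 and 6.46 in surface samples 1 to 4. The groups did not overlap, and its change was -0.82 ± 0.14 (SE, n = 4 pairs, adjusted p = 0.0141). A pair of further detected probes for Polr1a gave smaller changes of -0.44 and -0.26.

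Polr1e, a subunit that acts in initiation, read 7.11, 6.89, 7.23 and 7.26 at the crypt base and 5.98, 6.71, 6.61 and 6.67 at the surface. It fell by 0.63 ± 0.15 (SE, adjusted p = 0.0345), and surface sample 1 was far under the other surface samples. Polr1c, which is shared with RNA polymerase III, read 8.25, 7.33, 7.94 and 7.87 at the crypt base and 7.73, 7.30, 7.28 and 7.29 at the surface. Its groups overlapped, since surface sample 1 (7.73) read above crypt base 2 (7.33). Polr1c changed by -0.45 ± 0.12 (SE, adjusted p = 0.0461, 0.173 without the block). Polr1b, the other large catalytic subunit, changed by -0.44 ± 0.12 (SE, adjusted p = 0.0486, 0.0750 without the block).

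All 5 tested nucleolar proteins of broad function fell (median -0.70). Gnl3, or nucleostemin, a GTP-binding protein named for its expression in stem cells, had the lowest adjusted p on the list. It read 9.44, 9.24, 9.29 and 9.13 at the crypt base and 8.13, 8.58, 8.42 and 8.16 at the surface, a change of -0.95 ± 0.12 (SE, adjusted p = 0.00813). The gap between the lowest crypt base and the highest surface sample was wider than the range within either group.

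Ncl, nucleolin, which binds nascent ribosomal RNA, read 8.20, 7.51, 7.92 and 8.31 at the crypt base and 7.02, 7.17, 7.34 and 7.31 at the surface. It changed by -0.78 ± 0.15 (SE, adjusted p = 0.0196), and a further probe gave -0.62. Nolc1 (Nopp140), which accompanies snoRNPs to the nucleolus, read 7.42, 7.17, 7.34 and 6.93 at the crypt base and 6.35, 6.67, 6.65 and 6.40 at the surface. Its change of -0.70 ± 0.12 (SE, adjusted p = 0.0133) was of like size. Ddx21, an RNA helicase, changed by -0.50 ± 0.09 (SE, adjusted p = 0.0163, 0.112 without the block), and a further probe gave -0.69. Mybbp1a, a nucleolar partner of transcription factors, changed by -0.39 ± 0.10 (SE, adjusted p = 0.0402).

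**Figure D2:**
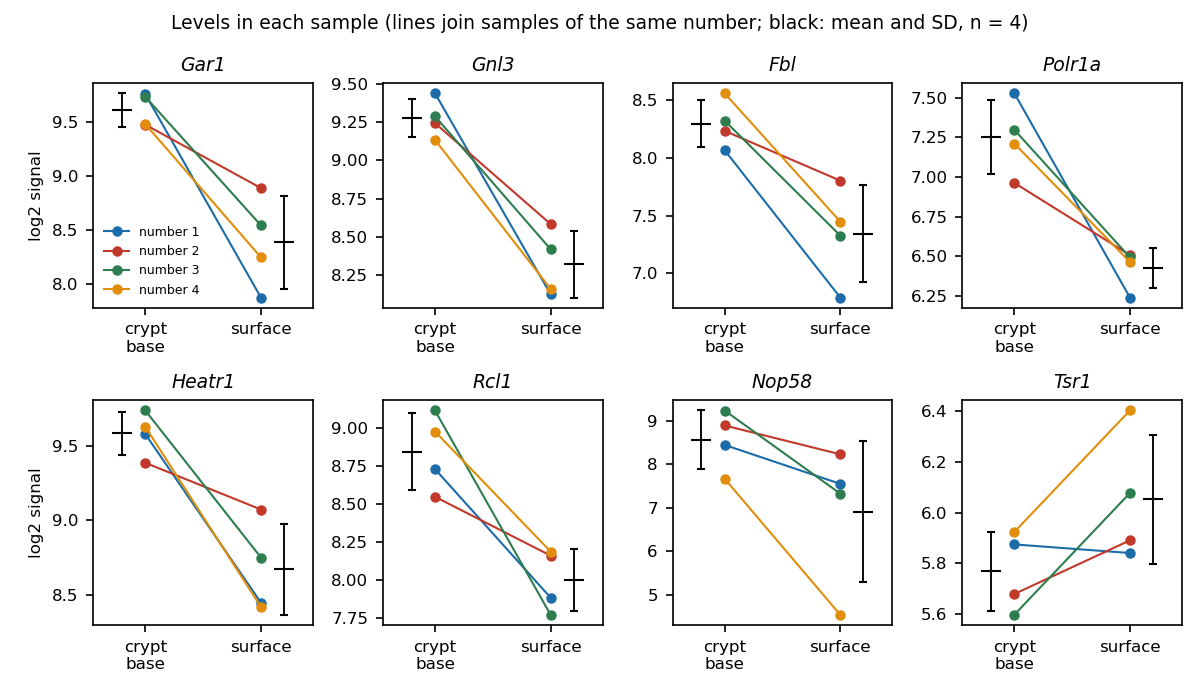
Log2 signal (y axis, scaled per gene) of 8 ribosome biogenesis genes in each crypt base and surface sample; lines join samples of the same number, and black marks give the mean and SD of 4. The lines for Gar1, Gnl3, Fbl, Polr1a, Heatr1, Rcl1 and Nop58 all slope down, number 4 of Nop58 reaches 4.54, and 3 of the 4 lines for Tsr1 slope up.

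Of the box C/D snoRNP proteins, which carry out 2′-O-methylation of ribosomal RNA, Fbl and Nop58 fell and Rrp9 did not pass. Fbl, fibrillarin, the methyltransferase itself, read 8.07, 8.23, 8.32 and 8.56 at the crypt base and 6.79, 7.80, 7.33 and 7.45 at the surface, a change of -0.95 ± 0.15 (SE, adjusted p = 0.0114). Nop58, a core protein of these particles, read 8.45, 8.89, 9.24 and 7.67 at the crypt base and 7.55, 8.23, 7.33 and 4.54 at the surface. Its change, -1.65 ± 0.40 (SE, adjusted p = 0.0345, 0.189 without the block), was the largest of the 36 with all samples in, and its groups overlapped. Surface 4 lay under background although the probe counted as detected on all 8 arrays, and without number 4 the change was -1.16 (adjusted p = 0.0457), smaller than that of Gar1 (-1.22). Rrp9, a protein of the U3 snoRNP, changed by -0.41 ± 0.13 (SE, adjusted p = 0.0710).

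Among the proteins of the box H/ACA snoRNPs, which convert uridines of ribosomal RNA to pseudouridine, Gar1 alone fell. It read 9.76, 9.47, 9.73 and 9.48 at the crypt base and 7.87, 8.89, 8.54 and 8.25 at the surface. That is a change of -1.22 ± 0.20 (SE, adjusted p = 0.0129), a 2.34-fold lower signal. Gar1 and Nop58 were the only members called with a change of at least 2-fold. Nop10 did not pass (-0.75 ± 0.24, adjusted p = 0.0713), although its groups did not overlap: it read 5.98 to 6.24 at the crypt base and 5.39, 5.91, 5.70 and 4.54 at the surface, where surface 1 and 4 lay under background. Its change was -0.43 without number 4 and -0.47 with signals floored at background (adjusted p = 0.0762 and 0.0226). Nhp2 changed by -0.29 ± 0.11 (SE, adjusted p = 0.113).

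The small subunit factors were mixed: 6 of 13 tested fell, with a median change of -0.48. Heatr1 is the homologue of yeast Utp10, of a complex that binds the precursor RNA early. It read 9.58, 9.39, 9.74 and 9.63 at the crypt base and 8.45, 9.07, 8.75 and 8.42 at the surface, a change of -0.91 ± 0.16 (SE, adjusted p = 0.0154). Its other detected probes ranged from -0.79 to -0.03, so its probes disagreed in size.

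Rcl1, needed for an early cut of the precursor RNA in yeast, read 8.73, 8.55, 9.12 and 8.98 at the crypt base and 7.88, 8.16, 7.77 and 8.19 at the surface. It changed by -0.85 ± 0.15 (SE, adjusted p = 0.0167), with no overlap of the groups. Wdr43, of the same early complex as Heatr1, had crypt base readings of 6.74 to 6.85 and surface readings of 6.20 to 6.44, a change of -0.48 ± 0.08 (SE, adjusted p = 0.0156). Rrp12 (-0.54, adjusted p = 0.0259), Imp4 of the U3 particle (-0.52, adjusted p = 0.0246) and Noc4l (-0.45, adjusted p = 0.0156) were the other genes of this role that fell.

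Of the 7 small subunit factors that did not pass, Imp3 read 9.88, 9.74, 10.20 and 9.91 at the crypt base and 8.78, 9.62, 9.13 and 9.57 at the surface. Imp3 is the partner of Imp4 in the U3 particle, and its groups did not overlap (-0.66 ± 0.19, SE, adjusted p = 0.0547). Ltv1, which leaves the small subunit late in its maturation, changed by -0.62 ± 0.18 (SE, adjusted p = 0.0574) and by -0.40 without number 3, Nop14 by -0.42 (adjusted p = 0.0632) and Utp4 by -0.31 (adjusted p = 0.116).

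The remaining small subunit genes, Utp14a, Utp15 and Tsr1, did not follow the others. Each of them read close to background, where differences come out too small. Noc4l, of the same role, fell with means of 6.20 at the crypt base and 5.74 at the surface. Utp15, of the same early complex as Utp4 and Heatr1, read 5.82 ± 0.20 at the crypt base and 5.82 ± 0.11 at the surface (SD, n = 4 each). The 95% interval of its difference ran from -0.24 to 0.25. Utp14a had 4 of its 8 values under background and an interval from -0.34 to 0.19. Tsr1, a GTPase-like factor of late small subunit maturation, read 5.88, 5.68, 5.60 and 5.92 at the crypt base and 5.84, 5.89, 6.08 and 6.40 at the surface. It was higher at the surface in 3 of the 4 pairs, by 0.28 ± 0.11 (SE, adjusted p = 0.121), with an interval from 0.01 to 0.56.

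Of the 8 large subunit factors tested, 1 fell (12.5%, near the 10.1% of all genes), and all 8 changes were below 0 (median -0.25). Bop1 works with Pes1 and Wdr12 in a complex needed to mature the RNAs of the large subunit. It read 7.05, 6.86, 7.23 and 7.22 at the crypt base and 6.52, 6.69, 6.82 and 6.80 at the surface, a change of -0.38 ± 0.09 (SE, adjusted p = 0.0299, 0.0593 without the block). Pes1 itself read 6.32 ± 0.09 at the crypt base and 6.17 ± 0.13 at the surface (SD, n = 4 each), with a 95% interval of the difference from -0.34 to 0.04.

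None of the other large subunit factors passed. Ebna1bp2 (-0.26, adjusted p = 0.0876), Ftsj3, an RNA methyltransferase (-0.34, adjusted p = 0.0954), and Noc2l (-0.38, adjusted p = 0.0993) lay nearer the threshold. Mrto4 (-0.24, and -0.12 without number 3), Nop2, which methylates the large ribosomal RNA (-0.12), and Nip7 (-0.11) had intervals that included 0. Mean signals at the crypt base and surface were 5.68 and 5.56 for Nip7 and 6.11 and 5.99 for Nop2. Mrto4 read 6.27 and 6.03, and Ftsj3 6.20 and 5.87. These levels lie close to background, where differences come out too small, while Noc2l (7.08 and 6.70) and Ebna1bp2 (8.6 and 8.4) were brighter. Genes of other roles at levels like those of Nop2, Mrto4 and Ftsj3 were nevertheless called lower. These were Mybbp1a (6.06 and 5.67), Noc4l (6.20 and 5.74) and Polr1b (6.24 and 5.80). Whether signal level bears on the calls was not tested. The difference between the large subunit factors and the other roles was not tested.

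The size of the fall differed between the numbered pairs. The median change of the 36 genes was -0.65 in pair 1, -0.17 in pair 2, -0.49 in pair 3 and -0.55 in pair 4, while that of all genes lay between -0.02 and 0.02. For 30 of the 36 the fall was smallest, or the change most positive, in pair 2, and for 21 it was largest in pair 1. Surface sample 1 was the lowest of the 8 samples for 22 of the 36 and surface sample 2 for 0. These counts were not made over all genes, so no share stands beside them. Surface colonocyte markers also differed least in pair 2, with a median change of 1.09 against 1.97 to 2.14 in the other pairs. Whether that bears on the genes' change in pair 2 was not tested.

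**Figure D3:**
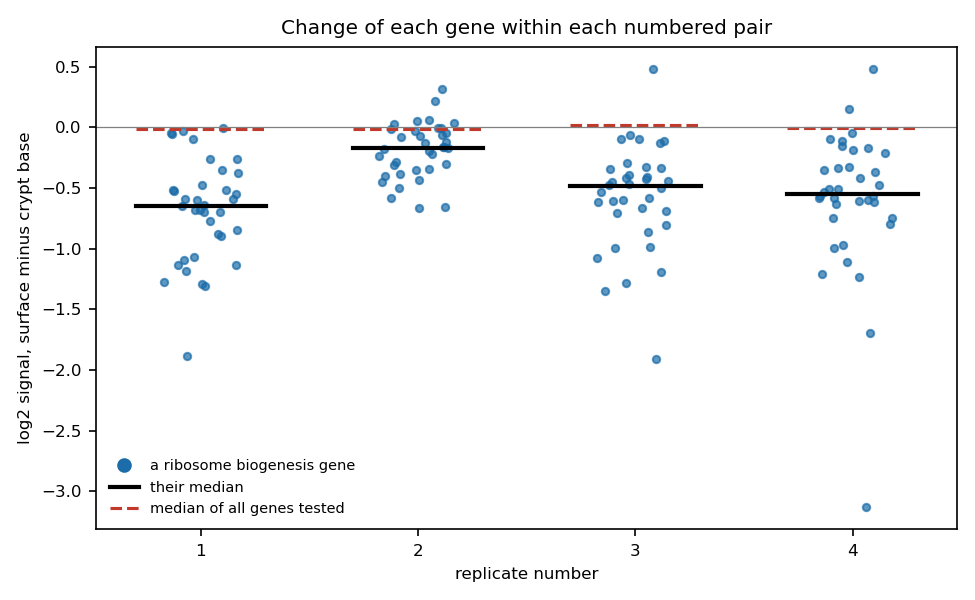
Change in log2 signal, surface minus crypt base, of each of the 36 ribosome biogenesis genes tested (points) within each numbered pair, with their median (black) and the median of all genes tested (dashed). The black line is lowest in pair 1 (-0.65) and nearest to 0 in pair 2 (-0.17); the lowest point is Nop58 in pair 4 (-3.13).

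Ribosome biogenesis genes outside the 48 were counted in 4 further lists, 111 genes of which 87 were tested. Of these, 19 fell (21.8%) and 2 rose, with a median change of -0.22, where 10.1% of all genes were lower and 12.1% higher. Among transcription factors and further subunits of RNA polymerase I, 3 of 10 fell: Polr1g, a subunit partnered with Polr1e (-1.0 ± 0.24, SE, adjusted p = 0.0351), Taf1d (-0.44) and Taf1a (-0.41), both of the promoter selectivity factor. Polr1g read 4.61 in surface sample 4, under background, against 5.88 to 6.03 in the other surface samples, and changed by -0.70 without number 4 (adjusted p = 0.0555). Without the block Polr1g (adjusted p = 0.0730) and Taf1a (0.0810) were not called, and a further probe for Taf1a gave -0.09. Ubtf, which binds the ribosomal RNA gene promoter, read 0.17 higher and did not pass (adjusted p = 0.239).

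Small subunit factors of these lists fell in 6 of 26, among them Nol6 (-0.71), Pno1 (-0.64, adjusted p = 0.0589 without the block), Emg1, a methyltransferase of the small ribosomal RNA (-0.60), and Utp11 (-0.53). A further probe for Emg1 gave -0.28. Dcaf13 had the largest opposite change (0.25, adjusted p = 0.0824). Of the RNA exosome and trimming genes 2 of 13 fell (15.4%, near the 10.1% of all genes). These were the core subunits Exosc7 (-0.78) and Exosc1 (-0.61), and Exosc6 read 0.08 higher (adjusted p = 0.830).

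Of the large subunit factors outside the 48, 8 of 38 were lower (21%) and 2 higher, where 10.1% of all genes were lower and 12.1% higher. The change was below 0 for 32 of the 38 (52.2% of all genes). Nle1 (-0.65), Rpf2, which brings in the smallest ribosomal RNA (-0.64), and Nmd3, the export adaptor of the large subunit (-0.53), fell. A further probe for Nmd3 gave -0.19. Sbds rose by 0.66 ± 0.12 (SE, adjusted p = 0.0160): it read 8.63 at the crypt base and 9.29 at the surface on average. Eif6, named after its value was seen, rose by 0.31 ± 0.08 (SE, adjusted p = 0.0402, 0.344 without the block). SBDS helps to release the anti-association factor eIF6 from the new large subunit, together with the GTPase EFL1. Efl1 read 0.07 higher and did not pass (adjusted p = 0.513). Sbds, Eif6 and Efl1 were higher at the surface in all 4 pairs. So were Gnl3l of the same list (0.34, adjusted p = 0.117) and Dcaf13 of the small subunit list. Over all genes 22.1% were lower in all 4 pairs, and the share higher in all 4 was not counted. A joint change of Sbds, Eif6 and Efl1 was not tested. Neither Sbds nor Eif6 was called without number 1, without 3 or without 4.

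The cytosolic ribosomal proteins, the cargo of this assembly line, fell in 28 of 47 tested and rose in 0, with a median change of -0.64. At an unadjusted p under 0.05 these counts were 40 and 0, where all genes gave 18.3% and 18.2%. By their brightest probes Rplp0 (-0.99) and Rpl22 (-0.98) had the largest changes. Further detected probes gave -0.36 for Rplp0 and -1.60 for Rpl13a (-0.91 by its brightest probe). DNA replication genes fell in 20 of 33 and rose in 0 (27 and 0 at an unadjusted p under 0.05, against the same shares; median -0.59), led by Uhrf1 (-1.34) and Mcm5 (-1.27). Both lists also fell least in pair 2, where their medians were -0.18 and -0.12. No difference between these lists and the ribosome biogenesis genes was tested.

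**Figure D4:**
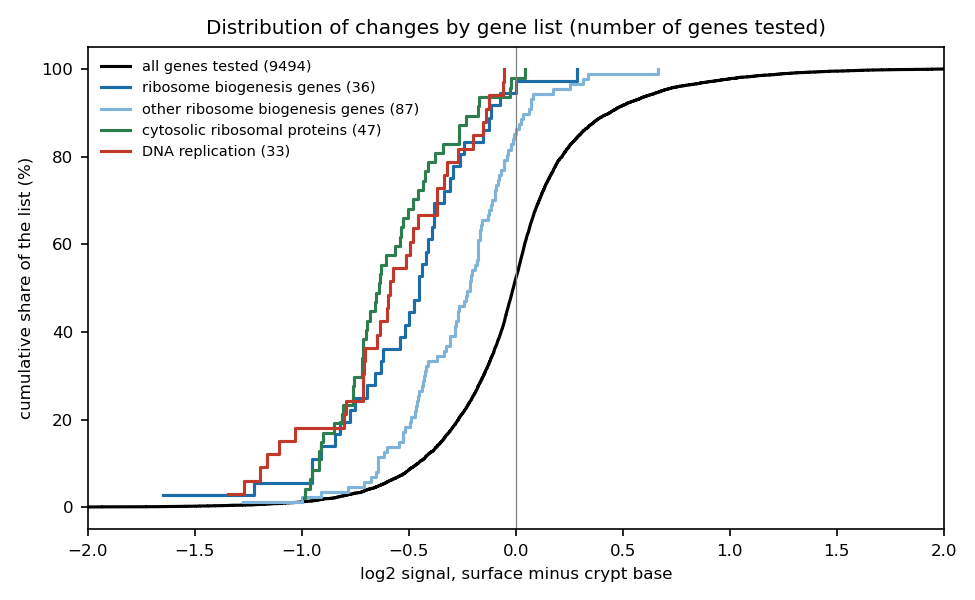
Cumulative share of each gene list (y axis, percent) by change in log2 signal from crypt base to surface (x axis). The curves of the ribosome biogenesis genes, the cytosolic ribosomal proteins and the DNA replication genes lie left of that of all genes tested, with medians of -0.45, -0.64 and -0.59, and the other ribosome biogenesis genes (-0.22) lie between.

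MYC and its partner MAX are known regulators of ribosome biogenesis genes in many cells, and proteins of the MXD family compete for MAX. Myc and Mycn were detected on 0 arrays and Mxd3 on 1, so their levels were not tested. Of the 5 genes of this network that were, Mycl fell (-0.94 ± 0.16, SE, adjusted p = 0.0140). Mxd1 rose by 1.68 ± 0.20 (SE, adjusted p = 0.00787), Mxi1 by 1.04 ± 0.14 (adjusted p = 0.00922) and Mlx by 0.50 ± 0.07 (adjusted p = 0.010). Mga read 0.09 higher (adjusted p = 0.433).

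The letters of the promoters were set beside these changes, since MYC and MAX bind the E-box CACGTG. RefSeq windows of assembly GRCm38.p6, from 250 bases before to 50 after the start of each gene, were matched for 43 of the 48. CACGTG, which reads the same on both strands, was in 10 of the 43 (23.3%), in 10.1% of the windows of 7708 genes tested and in 7.15% of all 32851 windows. The median GC content was 59.7% in the 43 and 60.3% in the genes tested. A match is a description of these letters and not evidence of binding.

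The 8 tested genes with a CACGTG are shown with 30 bases around it, 5′ to 3′ on the gene's strand, with the motif in capitals. They are printed to set the genes that carry this motif beside their changes.
Mybbp1a, chr11:72441347-72441376 (+): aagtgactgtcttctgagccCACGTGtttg
Utp4, chr8:106893643-106893672 (+): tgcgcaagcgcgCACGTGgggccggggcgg
Wdr43, chr17:71616220-71616249 (+): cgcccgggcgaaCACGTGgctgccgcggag
Imp4, chr1:34439696-34439725 (+): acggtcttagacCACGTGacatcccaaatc
Ltv1, chr10:13193092-13193121 (-): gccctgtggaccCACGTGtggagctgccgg
Tsr1, chr11:74898092-74898121 (+): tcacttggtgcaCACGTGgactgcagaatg
Pes1, chr11:3963965-3963994 (+): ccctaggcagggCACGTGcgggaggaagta
Nop2, chr6:125131811-125131840 (+): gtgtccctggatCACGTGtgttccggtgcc

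Imp4 and Nop2 carry the motif 121 and 60 bases before the start, and the other 6 carry it within 50 bases after it. Of these 8 genes Mybbp1a, Wdr43 and Imp4 fell, and their median change was -0.35, with a range from -0.62 (Ltv1) to 0.28 (Tsr1). Of the 25 tested genes whose window lacks the motif 13 fell, with a median of -0.45. The median fall was no larger in the genes that carry this E-box, but these sets were not matched for signal. Of the genes with it, Mybbp1a, Utp4, Tsr1, Pes1 and Nop2 had mean signals of 6.42 or less in both groups. Imp4, also with it, was bright (8.49 at the crypt base and 7.97 at the surface), and Mybbp1a fell although dim. Gar1, Gnl3 and Heatr1, without it, had means of 8.32 or more. Polr1b, Noc4l, Rrp9, Nhp2, Nop10, Utp14a, Utp15, Mrto4, Ftsj3 and Nip7, also without it, had means of 6.42 or less, and Polr1b and Noc4l of these fell. Differences close to background come out too small, and the difference between the sets was not tested.

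A pair of further motifs was counted on both strands, each on its own. CACGCG, a variant E-box, was in 32.6% of the 43 windows and in 16.2% of the genes tested. CCGGAAG, the core bound by ETS factors, was in 34.9% and 17.2%. The other ribosome biogenesis genes and the cytosolic ribosomal proteins held CACGTG in 17.2% and 8.62% of their windows. CACGCG was in 31.0% and 15.5% of the windows of these lists, and CCGGAAG in 44.8% and 39.7%. Of the 13 tested genes with CCGGAAG 5 fell, with a median change of -0.38, and of the 20 without it 11 fell, with a median of -0.47, a difference that was not tested. Gar1, Heatr1 and Nolc1 carry CCGGAAG and no CACGTG, and are shown as examples picked for their larger falls; Tsr1 (0.28) carries CCGGAAG too. For Gar1, Heatr1 and Nolc1 the 100 bases before the start are printed 5′ to 3′ on the gene's strand, with the motif, or its complement CTTCCGG, in capitals.
Gar1, chr3:129831397-129831496 (-): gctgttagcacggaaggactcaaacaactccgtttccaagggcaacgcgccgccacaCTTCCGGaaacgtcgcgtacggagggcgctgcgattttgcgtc
Heatr1, chr13:12395275-12395374 (+): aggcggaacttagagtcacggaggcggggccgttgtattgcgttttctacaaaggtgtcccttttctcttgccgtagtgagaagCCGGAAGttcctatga
Nolc1, chr19:46075747-46075846 (+): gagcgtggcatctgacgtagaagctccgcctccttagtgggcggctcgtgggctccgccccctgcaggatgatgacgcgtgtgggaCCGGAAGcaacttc

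Markers of other cells were set beside the ribosome biogenesis genes. Smooth muscle markers passed limma's adjusted test in 0 of 7, with 5 lower at an unadjusted p under 0.05 (18.3% of all genes). Their median change was -0.82, from Acta2 (12.59 at the crypt base and 11.75 at the surface) to Des (6.46 and 5.99). Their median deviation from each gene's mean ran from -0.43 to 1.39 in the crypt base samples and from -1.80 to 0.42 in the surface samples, so the groups overlapped. The markers were 0.26 higher at the surface in pair 3 and 1.02 to 1.44 lower in the other pairs, while the ribosome biogenesis genes changed by -0.49 in pair 3. Cnn1 and Synpo2, further muscle markers, were detected on 1 array each.

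Epithelial markers were higher at the surface in 6 of 10 (12.1% of all genes), opposite to the ribosome biogenesis genes. The markers ran from Lgals4 (13.26 and 13.67) to Epcam (5.40 and 5.68), with a median change of 0.49. Goblet and enteroendocrine markers rose in 2 of 11 (Tff3 and Clca1) and fell in 1 (Gcg), from Zg16 (a change of 0.25) to Chga (0.09). Fibroblast markers passed in 1 of 10, with Col3a1 higher (median -0.03; Dcn 10.38 and 10.00, Col1a1 5.70 and 5.75), and endothelial markers in 1 of 8, with Plvap higher (median 0.17; Pecam1 8.68 and 9.08, Kdr 5.85 and 5.81). Leukocyte markers passed in 0 of 5, with 1 higher at an unadjusted p under 0.05 (18.2% of all genes). Their median change was 0.07 (Laptm5 11.46 and 11.27, Cd79a 5.85 and 5.86), and Ptprc was detected on 0 arrays. Tff3, Clca1, Gcg, Col3a1 and Plvap are named after their values were seen. The goblet and enteroendocrine, fibroblast and endothelial counts lie near the shares over all genes, where 12.1% were higher and 10.1% lower by limma's adjusted test. Any part of these cells in the change of the ribosome biogenesis genes was not tested.

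**Figure D5:**
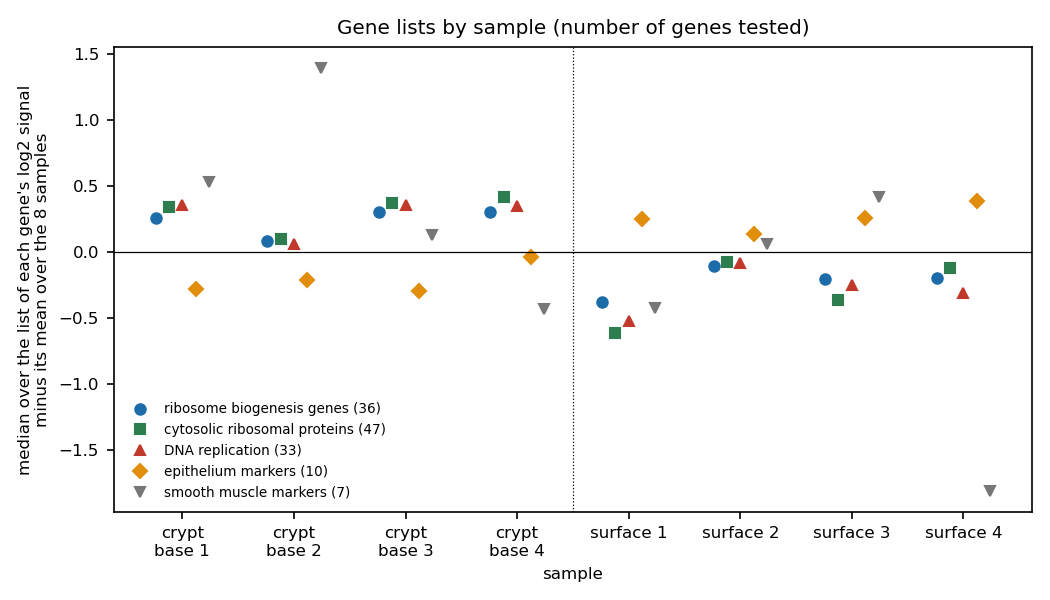
Median over each gene list of the log2 signal minus the gene's mean over the 8 samples (y axis), by sample (x axis). The ribosome biogenesis genes lie above 0 in all 4 crypt base samples (0.08 to 0.31) and below it in all 4 surface samples (-0.38 to -0.10), while the smooth muscle markers overlap between the groups.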

How the data were processed

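The authors deposited log2 values for 46632 probes on 8 arrays. The submitters' processing notes name GenomeStudio. Their normalization, not given in the sources used here, left the arrays nearly equal in distribution: the sorted columns agree within 0.01 at 99.0% of ranks. The deposited detection p-values, per the file headers, were used only as a number of arrays. That table's 8 signal columns match no label and were not used.

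Gene names came from the platform annotation (29976 probes with 1 symbol, 10 with several, 16646 with none). Each gene was represented by its probe with the highest mean. Genes detected on at least 4 arrays were fitted with limma 3.58.1 in R 4.3.3, two-sided, with Benjamini-Hochberg adjustment over 9494 genes at 0.05. The fit was tested on simulated data. The 48 genes and the lists were chosen with earlier results of these data known. All 48 genes are named; of other lists, those with the largest changes, and of markers the brightest and dimmest. The number of arrays limits the precision. In the main fit each limma p-value sets a gene's change against the spread of that change over the 4 numbered pairs, an estimate that also borrows from other genes.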

Additional observations from a re-analysis of the deposited data

Results flagged for a closer look

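In 4 of the 72 groups of 4 values examined for the 36 genes tested, 1 sample lay far from the other 3 of its group, and chance gives about 1 in 20 such groups. Surface sample 1 was the sample for 3 subunits of RNA polymerase I. It read 6.24 for Polr1a, under the 6.46 to 6.51 of the other surface samples, and 5.98 for Polr1e, under 6.61 to 6.71. For Polr1c it lay above the others, at 7.73 against 7.28 to 7.30. Surface sample 4 read 6.30 for Rrp9, above the 5.86 to 5.93 of the other surface samples.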

How the results depend on the processing

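The labels do not state that a replicate number marks the mouse. Across genes, deviations of same-numbered samples correlated at 0.45, 0.39, -0.04 and 0.48 (numbers 1 to 4), and those of unlike numbers at -0.49 to 0.31. With no replicate block, 13 listed genes and 12 other ribosome biogenesis genes were lower and 1 of the latter higher. Leaving out a replicate number gave 0 to 24 listed genes lower, 0 to 23 other genes lower and 0 to 1 higher. The block as a random effect and an intensity trend each left 1 other gene higher. Array weights gave 26 listed and 31 other genes lower, and leaving out surface sample 4 alone, an alternative chosen after seeing the data, 10 and 8, with 1 higher. The cause was not tested, although fewer samples enter the last fit and the leave-outs. Over the other settings (3 normalizations, a floor, filters, probe rules, robust variances) 16 to 22 listed genes were lower, and 0 were higher under any setting. Changes near 0 turned sign: that of Utp15 went to -0.045 with array weights, -0.035 without surface sample 4 and -0.10 to 0.040 without a replicate number, while that of Utp14a ran from -0.15 to 0.039, the last without replicate 3.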

Other observations

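Low readings in surface sample 4 were not confined to Nop58. Among the other ribosome biogenesis genes tested, Ddx27, a helicase of the large subunit, read 4.71 there against a median of 7.26 in the other 7 samples. Senp3, a SUMO protease of the nucleolus, read 4.61 against 7.06, and Exosc2, an exosome subunit, 4.70 against 7.27. These 3 genes, named after their values were seen, did not pass the test, unlike Polr1g, which also read low there (4.61). Without number 4 the change of Senp3 went from -0.42 to 0.26 (limma adjusted p = 0.171), that of Ddx27 from -0.91 to -0.63 (adjusted p = 0.302) and that of Exosc2 from -1.28 to -0.73 (adjusted p = 0.0607).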
